A study of Mus musculus with 16 samples.

Results

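EC_11 is a cluster of cells from mouse brown fat, taken from its stromal vascular fraction, the cell pellet that remains once digested fat has been cleared of its floating adipocytes. Its members are the 839 cells that the authors' annotation of single-cell RNA sequencing data names EC_11, out of 2983 cells in the 6 clusters whose names begin with EC_, 24352 cells with any name and 109723 cells in all. EC_11 made up 28.1% of EC_ cells, 3.45% of named cells and 0.765% of all cells, and was the 12th largest of the 28 named clusters. The prefix EC is read here as endothelial cell.

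The libraries came from interscapular brown fat of C57BL6J mice in 4 housing groups of 4 libraries each: thermoneutral housing at 30 °C for 1 week, room temperature at 22 °C for 1 week, 5 °C for 2 days and 5 °C for 7 days. All groups shared the enzymatic digestion, the removal of floating adipocytes and red blood cells, and the depletion of dead cells. The series set out to describe how the cell makeup of the tissue changes during remodelling in cold. Nothing in the labels says which libraries came from separate animals, so p-values measure the spread between these libraries, which may be technical.

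Endothelial cells line blood and lymph vessels. In brown fat, a dense capillary bed brings oxygen, glucose and lipids to the heat-producing adipocytes and carries heat away, and vessel growth in cold is a known part of the remodelling of this tissue. Endothelial cells are usually recognised by Pecam1, an adhesion molecule at their junctions, by Cdh5, the cadherin that joins neighbouring endothelial cells, and, mainly in larger vessels, by Vwf, a clotting protein stored in their granules. Gene values were not analysed here, so the label could not be checked against Pecam1, Cdh5 or Vwf, and nothing is said of the vessel type of EC_11.

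Libraries held 1473 to 10005 cells, of which 357 to 3739 were named, and in 1 library, replicate 1 after 2 days of cold, no cell carried a name. Values over named cells therefore rest on 15 libraries, with 3 for 2-day cold. The lowest UMI count of any cell kept in a library ran from 800 to 1921 (a UMI, or unique molecular identifier, marks one captured RNA molecule), and libraries held 7 to 181 EC_11 cells. In deviations of cluster makeup from the group means, the best match of each of the 15 libraries was a library on the same side of the replicate numbers (1 and 2, or 3 and 4), so changes are also given within each such set. Sample numbers in the labels run from 1 to 8 for the first set and from 9 to 16 for the second, and what the sets stand for is not stated. Of EC_11 cells 30 carried a barcode also found in another library, and 1 barcode occurred in EC_11 of more than one library.

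The share of EC_ cells that were EC_11 fell from 36.6% ± 3.20 (SD, n = 4) in thermoneutral housing to 11.4% ± 3.85 (n = 4) after 7 days at 5 °C. In the thermoneutral libraries EC_11 was 38.3%, 31.9%, 38.9% and 37.4% of EC_ cells in replicates 1 to 4. In 7-day cold it was 6.96%, 11.3%, 11.1% and 16.4%. The groups did not overlap, and the lowest thermoneutral library lay well above the highest cold one. Counting error is large in the cold libraries, which held 11, 16, 10 and 9 EC_11 cells: the 95% Wilson interval of replicate 4 ran from 8.86% to 28.3%, against 22.3% to 43.4% for thermoneutral replicate 2, the lowest of its group. The log2 odds ratio was -2.17 ± 0.58 (SE; 95% interval -3.34 to -1.01), a 4.51-fold decrease in odds, with an adjusted p of 0.00226 in limma over the 5 EC_ clusters with enough cells to test. In this comparison 2 of the 5 clusters were called (40%). The limma SE was the same for all 5, because their spread was pooled as if these tied shares were independent. It is therefore not the spread of EC_11 alone. Taken alone, replicates 1 and 2 gave a log2 odds ratio of -2.42. Replicates 3 and 4 gave -1.92. The exact two-sided permutation test over the 8 libraries gave p = 0.0286, the smallest that 70 assignments allow, and 0.0857 after adjustment over the 6 pairs of groups. The call ended with ECAP and Lymph_EC cells added to the denominator, where the value was -1.22 ± 0.56 (limma, adjusted p = 0.0547).

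**Figure D1:**
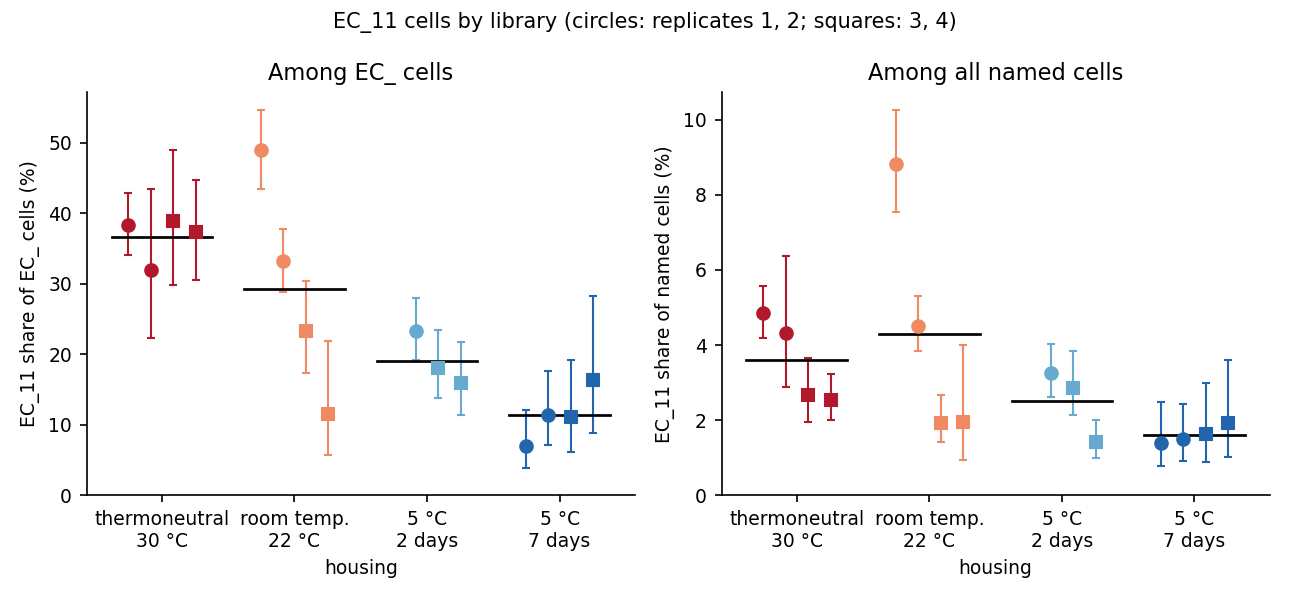
EC_11 as a percentage of EC_ cells (left) and of all named cells (right) in each library, by housing. Bars are 95% Wilson intervals, which cover counting error only, and black lines are group means. The 4 thermoneutral libraries sit between 31.9% and 38.9% of EC_ cells and the 7-day libraries between 6.96% and 16.4%.

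In 2-day cold, EC_11 was 23.2%, 18.1% and 15.9% of EC_ cells in replicates 2, 3 and 4, with a mean of 19.1% ± 3.77 (SD, n = 3). Each of these libraries lay below every thermoneutral one. Replicate 1, with no named cells, is missing from this comparison. In the authors' clustering of all cells, described below, the cluster holding most of EC_11 lay inside the thermoneutral range in that library. The log2 odds ratio against thermoneutral housing was -1.30 ± 0.63 and did not pass (limma, adjusted p = 0.187). The exact permutation p was 0.0286, the smallest that 35 assignments allow, and 0.0857 after adjustment. Within replicates 3 and 4 the estimate of -1.58 passed (limma, adjusted p = 0.0496). Within replicates 1 and 2, with 1 cold library, it was -0.84 (limma, adjusted p = 0.350).

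Room temperature gave the widest spread. Replicates 1 and 2 held 49.0% and 33.2% EC_11 among EC_ cells. Replicates 3 and 4 held 23.3% and 11.5%, for a mean of 29.2% ± 15.9 (SD, n = 4). These values enclose the whole thermoneutral range and reach into the 7-day range. Against thermoneutral housing the log2 odds ratio was -0.62 ± 0.58 (limma, adjusted p = 0.618). Its sign turned between the sets of replicates, from 0.35 in replicates 1 and 2 to -1.59 in the others, and the difference between these was -1.94 ± 0.70 (limma, adjusted p = 0.102 over the 5 clusters). RT replicate 4 had 7 EC_11 cells, with a Wilson interval of 5.67% to 21.8%.

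By mean share the order was thermoneutral, room temperature, 2-day cold and 7-day cold, and no neighbouring pair in it differed beyond the spread between libraries. The sets of replicates did not share this order. Room temperature was above thermoneutral housing within replicates 1 and 2 (log2 odds ratio 0.35). Within replicates 3 and 4, 2-day cold and room temperature were nearly equal (0.00896). The interval for room temperature against thermoneutral housing was -1.79 to 0.54. The log2 odds ratio of 2-day cold to room temperature was -0.68 ± 0.63 (95% interval -1.94 to 0.58). That of 7-day to 2-day cold was -0.87 ± 0.63 (95% interval -2.13 to 0.39). For 7-day cold against room temperature it was -1.55 ± 0.58, just short of the threshold (limma, adjusted p = 0.0508). There the sets of replicates differed widely, at -2.77 in replicates 1 and 2 (limma, adjusted p = 0.00129) and -0.33 in replicates 3 and 4 (adjusted p = 0.521). The exact permutation test gave p = 0.0571, or 0.114 after adjustment. Of 33 alternatives 20 passed and 13 did not. With libraries left out singly, the comparison passed in 5 of 15 fits. These were without thermoneutral replicate 2 (limma, adjusted p = 0.0481) or 3 (0.0411), room-temperature replicate 3 (0.0403) or 4 (0.00398), or 7-day replicate 4 (0.0183). Leaving out a thermoneutral library changes only the pooled spread here, not the estimate. The estimate nearest to no change was -1.10, without room-temperature replicate 1, and adjusted p over the 15 fits reached 0.211. The comparison also passed with the replicate number as a block (adjusted p = 0.0149) and in edgeR (adjusted p = 0.00715). Over the 4 groups together the limma F statistic of EC_11 was 5.09 (adjusted p = 0.00803).

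EC_10 moved the other way from EC_11. It rose from 23.1% ± 11.0 (SD, n = 4) of EC_ cells in thermoneutral housing to 47.3% ± 10.6 (n = 4) in 7-day cold, a log2 odds ratio of 1.66 ± 0.58 (limma, adjusted p = 0.0153). The thermoneutral libraries held 14.6%, 13.9%, 36.8% and 27.0% EC_10 and the cold ones 52.5%, 33.3%, 57.8% and 45.5%, so the groups overlapped. EC_11 was the largest EC_ cluster in 4 of 4 thermoneutral libraries, in 2 of 4 at room temperature, in 0 of 3 in 2-day cold and in 0 of 4 in 7-day cold. For every 100 EC_10 cells there were 184 ± 74.1 EC_11 cells (SD, n = 4) in thermoneutral libraries and 25.6 ± 11.1 (n = 4) after 7 days of cold.

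The other EC_ clusters did not pass between 7-day cold and thermoneutral housing. EC_15 was 28.9% ± 9.27 (SD, n = 4) against 19.5% ± 7.99 (n = 4). EC_23 was 6.66% ± 4.90 against 14.3% ± 7.53 (log2 odds ratio -1.24 ± 0.58, limma, adjusted p = 0.0619), which did not pass. EC_28 was 4.78% ± 2.36 against 6.14% ± 2.55. EC_32, with 62 cells and too few to test, was 0.910% ± 0.760 against 0.371% ± 0.742, and had its higher means at room temperature (3.21% ± 1.75, n = 4) and in 2-day cold (3.42% ± 0.469, n = 3). Shares within one set are tied to each other, so a lower EC_11 share and a higher EC_10 share are not separate observations.

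**Figure D2:**
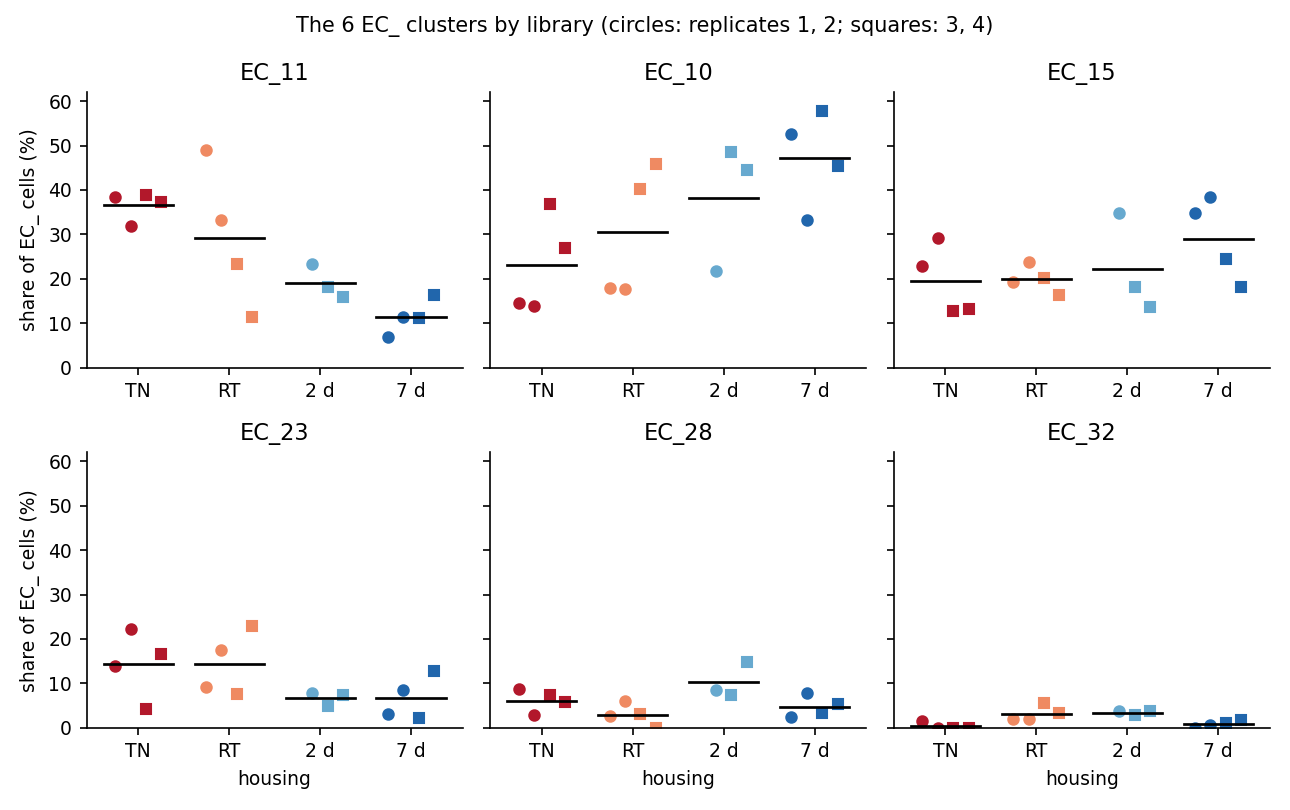
Share of EC_ cells taken by each of the 6 EC_ clusters in each library, by housing (TN, thermoneutral; RT, room temperature; 2 d and 7 d, days at 5 °C), with black lines at the group means. EC_11 goes from a mean of 36.6% to 11.4% and EC_10 from 23.1% to 47.3% between thermoneutral housing and 7-day cold.

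As a share of all named cells EC_11 also had its lowest mean in 7-day cold, without passing the test. It was 4.84%, 4.31%, 2.67% and 2.54% of named cells in thermoneutral replicates 1 to 4, and 1.4%, 1.50%, 1.64% and 1.91% in 7-day replicates 1 to 4. All cold libraries lay below all thermoneutral ones, by a small margin. The log2 odds ratio was -1.09 ± 0.52 (95% interval -2.19 to 0.01; limma over 27 named clusters, adjusted p = 0.0943), in a comparison where 10 of 27 clusters (37%) were called, 9 as higher. The estimate was -1.66 within replicates 1 and 2 (adjusted p = 0.0400) and -0.51 within replicates 3 and 4. The comparison passed with the set of replicates as a covariate (limma, adjusted p = 0.0442), without the VSM clusters in the denominator at -1.95 (adjusted p = 0.0383), and with centred log ratios at -1.8 (adjusted p = 0.0182). The exact permutation p was 0.0286, the smallest possible, and 0.171 after adjustment over the 6 pairs of groups. Against room temperature it was -1.14 ± 0.52 (limma, adjusted p = 0.118), with 2 of 27 clusters called (7.41%). That estimate was -2.15 in replicates 1 and 2 (limma, adjusted p = 0.00955) and -0.13 in replicates 3 and 4 (adjusted p = 0.914). Among all cells of a library, named or not, the estimate was -1.87 ± 0.92 (adjusted p = 0.118).

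EC_ cells as a whole were 9.94% ± 3.61 of named cells (SD, n = 4) in thermoneutral libraries and 14.9% ± 3.68 (n = 4) after 7 days of cold. At room temperature EC_11 was 8.80% of named cells in replicate 1 and 4.52%, 1.94% and 1.96% in replicates 2, 3 and 4. In 2-day cold it was 3.25%, 2.87% and 1.41% in replicates 2, 3 and 4. Neither group differed from thermoneutral housing beyond the spread (log2 odds ratios 0.05 ± 0.52 and -0.56 ± 0.56).

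Ratios of EC_11 to each other named cluster do not depend on a denominator, though all of them share the EC_11 counts. In 7-day cold against thermoneutral housing, 13 of 26 ratios (50%) fell and none rose in limma. A ratio falls when EC_11 falls or when the other cluster rises, so these ratios do not show a loss of EC_11 by itself. As shares of named cells, 9 clusters were called higher, Schwann_14 (2.81 ± 0.46) and VSM_21 (2.49 ± 0.38) among them, and the ratio fell against all 9. EC_11 was not called there (-1.09 ± 0.52, limma, adjusted p = 0.0943). Counting only cells with at least 7085 UMIs, the median of named cells, 7 ratios were called. Fewer ratios were tested there, so 7 is not to be set against 26. With all cells counted, the 3 lowest were the ratios to Adipo_16 (-5.42 ± 1.61 on the log2 scale, adjusted p = 0.00923), Adipo_24 (-4.30 ± 1.45, adjusted p = 0.0195) and Schwann_18 (-4.05 ± 1.14, adjusted p = 0.00750). The Adipo ratios rest on few cells in thermoneutral libraries and on the 0.5 cells added to each count. Among the vascular names, the ratio fell against EC_10 (-2.81 ± 0.73, adjusted p = 0.00687), EC_15 (-2.29 ± 0.61, adjusted p = 0.00687), Lymph_EC_19 (-3.10 ± 0.92, adjusted p = 0.00923) and Pericyte_12 (-3.37 ± 0.87, adjusted p = 0.00687). Lymph_EC is read as lymphatic endothelium, and pericytes are the mural cells wrapped around capillaries.

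VSM is read as vascular smooth muscle, and these clusters did not behave alike. The ratio to VSM_21 fell (-3.51 ± 0.68, limma, adjusted p = 0.00109), a cluster named here after its value was seen. The 3 highest ratios were those to VSM_27 (0.88 ± 1.18), VSM_1 (0.79 ± 1.00) and VSM_2 (0.53 ± 0.60), none of which passed, and the ratio to ECAP_4 was 0.40 ± 0.66 (95% interval -1.01 to 1.8). EC_23 (-0.57 ± 0.74) and EC_28 (-1.36 ± 0.57, limma, adjusted p = 0.0519) also did not pass. For 2-day cold 2 of 26 ratios (7.69%) were called, both lower, but the number went from 0 to 8 as single libraries were left out. For room temperature limma called 0 of 26 (0%), with 1 at an unadjusted p below 0.05.

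**Figure D3:**
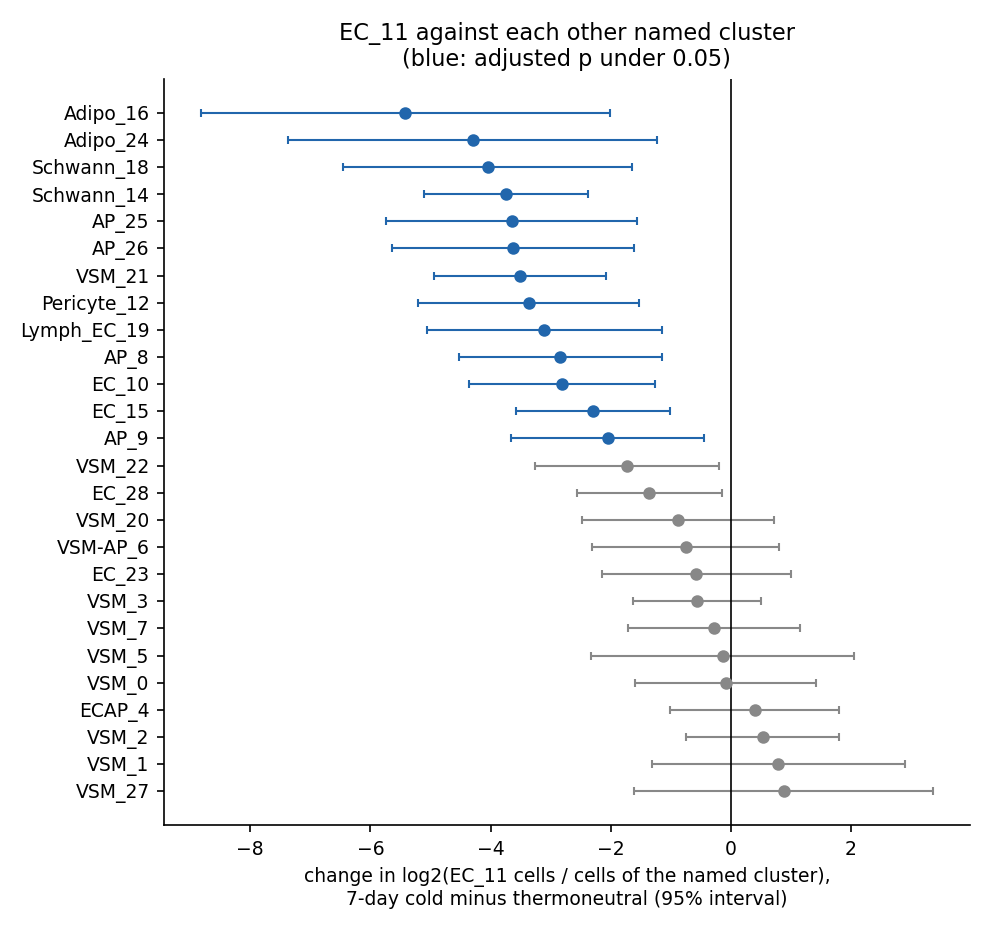
Change in the log2 ratio of EC_11 cells to the cells of each other named cluster, 7-day cold minus thermoneutral, with 95% intervals from limma; blue marks the 13 ratios past the threshold. The ratios run from -5.42 for Adipo_16 to 0.88 for VSM_27.

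The authors' clustering of all cells, made separately from that of the named cells, kept most of EC_11 together. At its finest resolution, 757 of the 839 EC_11 cells (90.2%) were in cluster 22, 70 in cluster 18 and the rest in 6 others. Cluster 22 held 1440 cells, of which 1149 were named, and 264 of those were EC_23, from the 322 cells of that name. Most cells of EC_10 and EC_15 fell in cluster 18 (813 and 651). Over clusters 18, 22 and 52, whose named cells were 98.9%, 96.4% and 97.4% EC_, cluster 22 took 48.3% ± 6.28 (SD, n = 4) in thermoneutral housing, 42.2% ± 11.8 at room temperature, 32.7% ± 9.14 in 2-day cold and 11.3% ± 5.71 in 7-day cold. These values cover 16 libraries, and they rest largely on the same cells as the named shares, so they add no independent support. Replicate 1 of 2-day cold, which has no named cells, held 261 cells of cluster 22, or 44.2% of its cells in these 3 clusters (95% Wilson interval 40.3 to 48.3). That is above the other 2-day libraries, at 32.7%, 31.9% and 21.9%, and inside the thermoneutral range of 38.9% to 52.1%. In 7-day cold the 4 libraries held 5.99%, 15.7%, 6.67% and 16.7%.

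At the finest resolution of the table of named cells, 786 EC_11 cells formed cluster 13, 51 formed cluster 42 and 2 fell in cluster 16, whose other cells were mostly EC_15. Cluster 42 had no cell of another name. It had a median of 1585 UMIs per cell, against 13173 in cluster 13. Room-temperature replicate 1 supplied 31 of its 51 cells, 20.9% of that library's EC_11 cells, with a median of 1132 UMIs against 18268 for its other EC_11 cells. The other libraries gave 0 to 6 cells each.

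EC_11 cells carried more UMIs than the other EC_ cells as a pool, though EC_32 came close. The cluster's median was 12804 UMIs and 3650 detected genes per cell, the 4th and 2nd highest of the 28 named clusters, while the medians of the other EC_ cells were 3900 and 1713.5. Of EC_11 cells 79.9% reached the median of all named cells, 7085 UMIs, and 21.7% held more than 20000 UMIs, against 26.6% and 3.73% of the other EC_ cells. The 62 cells of EC_32 had medians of 10601 UMIs and 3142.5 genes, and 16.1% of them held more than 20000 UMIs. The other 4 EC_ clusters had medians from 2572.5 UMIs (EC_23) to 6494 (EC_28). In 15 of 15 libraries the EC_11 median was higher than that of the library's other EC_ cells, by a factor of 2.22 to 8.35 (median 3.71). These comparisons are descriptions, because the clusters were made from the same cells' transcripts. Doublets were not called, and the part of UMI count in the assignment of cells to EC_11 was not tested. With only cells of at least 1921 UMIs kept, which gives all libraries one floor (an alternative chosen after seeing the data), the 7-day change in the share of EC_ cells was -1.94 ± 0.60 (limma, adjusted p = 0.0105), and it was -2.18 ± 0.52 with the floor at 7085 UMIs (limma, adjusted p = 0.000752 over the 2 EC_ clusters left).

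Across housing, the median UMI count of EC_11 cells was 10763, 17524, 10282 and 13573 in thermoneutral replicates 1 to 4 and 18277, 24673, 10543 and 15951 in 7-day replicates 1 to 4. The groups overlapped. On the log2 scale the difference was 0.40 ± 0.37 (95% interval -0.33 to 1.13; limma over 21 clusters, of which 1 was called, 4.76%; adjusted p = 0.377), with the 9 cells of 7-day replicate 4 and the 7 of room-temperature replicate 4 left out as too few. Set against the other EC_ cells of each library the difference was 0.80 ± 0.38 (limma, adjusted p = 0.0536). For EC_11 medians with the floor at 7085 UMIs it was 1.00. That floor selects cells on the measured value itself, so 1.00 is no test of depth. It also leaves replicate 2 as the only 7-day library with at least 10 EC_11 cells. Without a floor, EC_11 medians differed by 0.63 within replicates 1 and 2 (limma, adjusted p = 0.251). In replicates 3 and 4 the value was -0.16, with 1 library on the 7-day side, replicate 3, of 10 EC_11 cells. The other EC_ cells had library medians of 2950 to 4723 UMIs in thermoneutral housing and 2956 to 3235 in 7-day cold. Because of its depth, EC_11 supplied 55.3% ± 6.52 (SD, n = 4) of all UMIs of EC_ cells in thermoneutral libraries and 29.7% ± 9.15 (n = 4) after 7 days of cold, both well above its share of the cells.

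**Figure D4:**
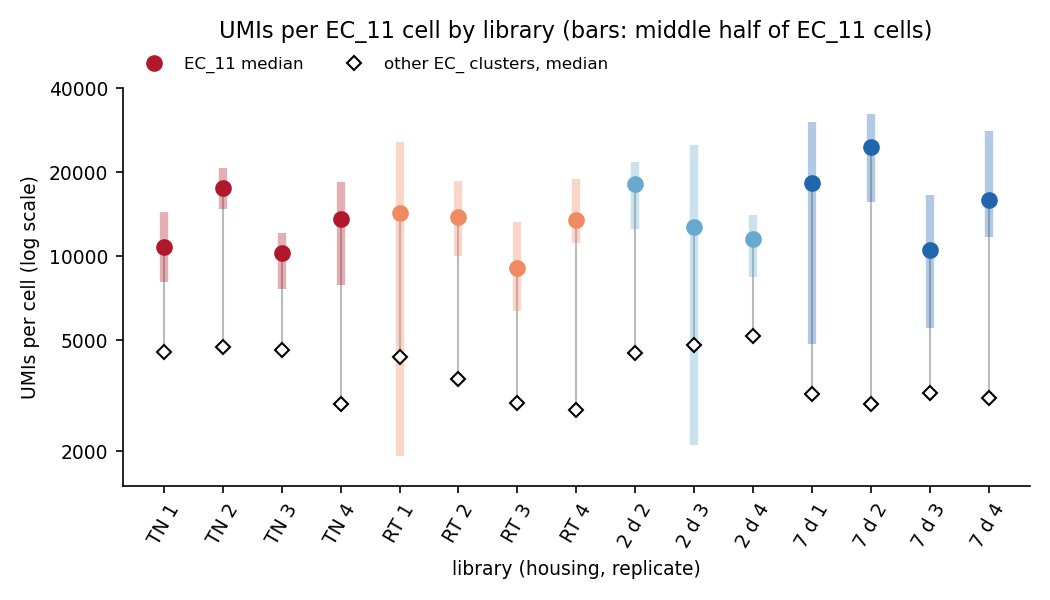
UMIs per cell in each library on a log scale. Filled circles are EC_11 medians, with bars from the lower to the upper quartile of EC_11 cells, and open diamonds are medians of the other EC_ cells. In all 15 libraries the circle lies above the diamond, by a factor of 2.22 to 8.35.

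The mitochondrial share of UMIs, which rises in damaged cells, had a median of 3.57% over all EC_11 cells, against 6.45% over all named cells. Named clusters differed widely, up to a median of 38.6% in Adipo_16, and EC_11 was 15th highest of the 28. By library the median was 3.57%, 3.29%, 5.63% and 5.19% in thermoneutral replicates 1 to 4 and 6.32%, 6.09%, 4.18% and 7.95% in 7-day replicates 1 to 4, and 0% of EC_11 cells reached 20%. The groups overlapped, and the log2 difference was 0.33 ± 0.28 (limma, adjusted p = 0.291, with 1 of 21 clusters called, 4.76%). It was 0.84 within replicates 1 and 2 (limma, adjusted p = 0.0224). Within replicates 3 and 4 it was -0.36, with 1 library on the 7-day side, replicate 3, of 10 EC_11 cells. EC_11 was above the other EC_ cells, pooled, in 15 of 15 libraries, by 0.138 to 3.69 percentage points. Among single clusters EC_23 lay far above it, with a median of 9.37%, and the others lay between 1.90% (EC_15) and 3.36% (EC_10).

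The authors scored S-phase and G2M-phase genes in each cell and assigned a phase from the scores. In the table of named cells, 80.1%, 78.3%, 86.5% and 83.1% of EC_11 cells were called S or G2M in thermoneutral replicates 1 to 4, and 36.4%, 50%, 80% and 66.7% in 7-day replicates 1 to 4. The log2 odds fell by 1.8 ± 0.51 (limma, adjusted p = 0.00702; 7-day replicate 4 left out for its 9 cells), but 10 of 21 clusters (47.6%) were called in this comparison, 9 of them lower, EC_15 (-1.58 ± 0.43) among them. Relative to the other EC_ cells of the library the value was -0.77 ± 0.49 and did not pass (limma, adjusted p = 0.317). Replicates 1 and 2 gave -2.24 (limma, adjusted p = 0.00618). Within replicates 3 and 4 the value was -0.64, with only replicate 3 (10 EC_11 cells) on the 7-day side. Without 7-day replicate 1 the fall was not called (-1.26 ± 0.53, limma, adjusted p = 0.0557).

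The table of all cells gives other phase calls for the same EC_11 cells. There 7.46% ± 2.69 (SD, n = 4) were called S or G2M in thermoneutral libraries and 13.7% ± 14.1 (n = 4) after 7 days of cold, and the sign turned to 0.24 ± 0.66 (limma, adjusted p = 0.890). Over all EC_11 cells 73.9% were called S or G2M in one table and 11.1% in the other, with equal calls for 36.7% of cells. Median scores were close to 0 (0.00403 for S and -0.00125 for G2M in the table of named cells). Why the calls differ was not tested, and they are not read as cycling.

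**Figure D5:**
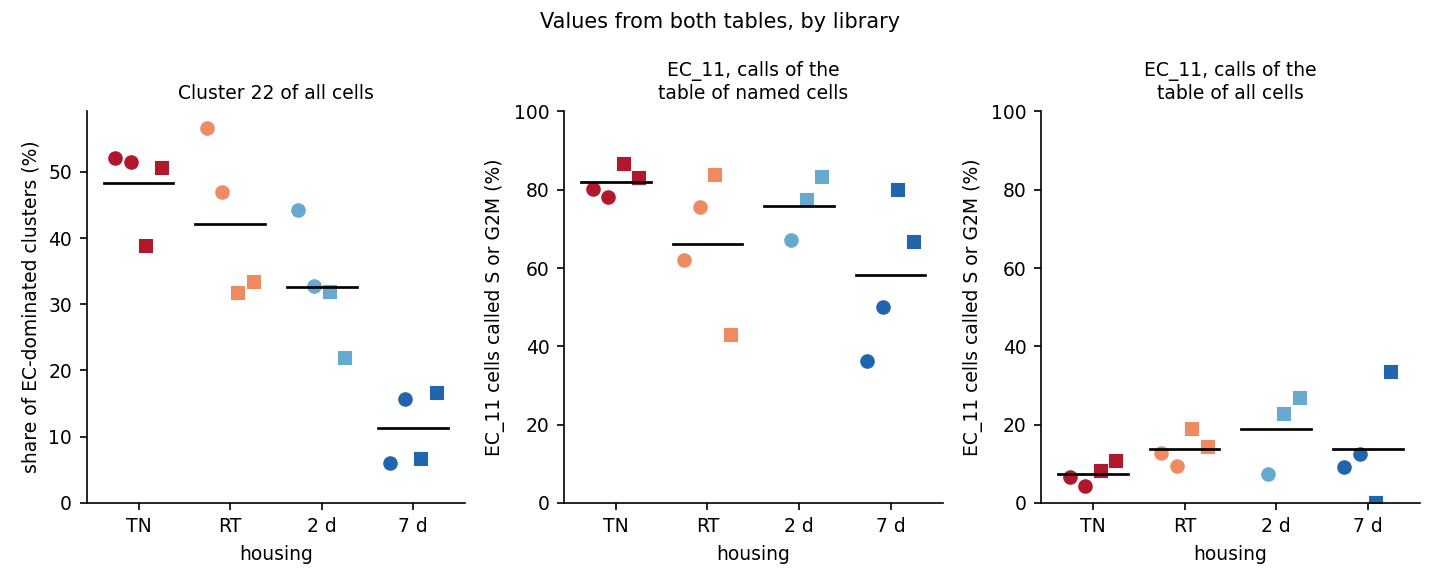
Left, cluster 22 of all cells as a percentage of the 3 clusters in which most named cells are EC_, in 16 libraries. Middle and right, percentage of EC_11 cells called S or G2M in the table of named cells and in the table of all cells; black lines are group means, circles are replicates 1 and 2 and squares replicates 3 and 4. Thermoneutral libraries lie at 78.3% to 86.5% in the middle panel and at 4.35% to 10.8% in the right one.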

How the data were processed

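Per the labels' protocols, a 10x Genomics Chromium 3' v3 kit was used, and STAR, Cell Ranger 3.0.1 and mm10 are named in the submitters' processing notes. How cells were filtered, integrated and clustered is not stated in the labels. The authors deposited whole-number counts of UMIs and of detected genes for each cell. The mitochondrial fraction was deposited by the authors from 0 to 1 and is printed in percent. Phase scores and cluster names were deposited by the authors too, as was a ratio of log10 genes to log10 UMIs, not used here.

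EC_11 cells were counted per library. Shares, with 0.5 cells added to cluster and rest, were fitted as log2 odds in limma 3.58.1 (R 4.3.3), with 4 groups in one fit, no block, only clusters averaging 10 or more cells a library, and Benjamini-Hochberg adjustment over clusters within a comparison (threshold 0.05, two-sided). Fits of EC_ shares used libraries with at least 20 EC_ cells. In these fits and those of median UMIs, limma pooled the spread fully over clusters, so their SEs are not those of EC_11 alone. Median UMIs, log2(mitochondrial percent + 0.1) and phase log2 odds used values from at least 10 cells, over 21 clusters. Exact permutation tests over libraries and edgeR 4.0.16 were alternatives. Wilson intervals cover counting error only. Doublets were not called. The limma fits of shares were tried on simulated counts in which clusters varied independently, so the tie between shares was not tested. EC_11 was always described in full, with the other EC_ clusters, the nearest vascular names and the 3 highest and 3 lowest ratios; members and lists were chosen with earlier results of these data known. No library pair of one group agreed within sampling noise (lowest chi-square per degree of freedom 3.84).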

Additional observations from a re-analysis of the deposited data

Results flagged for a closer look

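Replicate 1 of 2-day cold has no named cells, yet 261 of its cells were in cluster 22 of all cells, the cluster that holds most of EC_11. They were 44.2% of its cells in the 3 clusters of mostly EC_ cells, a signal in data that the comparisons of named cells do not use.

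In thermoneutral replicate 3, cluster 22 was 38.9% of those 3 clusters, far from the 50.6% to 52.1% of the other thermoneutral libraries. In room-temperature replicate 3 the median of EC_11 cells was 9053 UMIs, far from the 13470 to 14334.5 of the other room-temperature libraries. These were 2 of 37 sets of 4 libraries looked at in this way, and chance flags about 1 in 20.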

How the results depend on the processing

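Log2 differences are meant unless stated, and alternatives gave 728 values for 26 results, of which 645 kept direction, side of the threshold and, for counts, size within 1.5 times. The cause of the changes was not tested. The 7-day fall in the share of EC_ cells was past the threshold in 31 of 33 alternatives; the exceptions were the exact permutation test (-2.17, adjusted p = 0.0857) and the denominator with ECAP and Lymph_EC (-1.22), where the value over 4 groups was F = 2.72, against 4.94 in edgeR with TMM, neither called. With libraries left out singly it was -2.40 to -1.93.

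For 7-day cold against room temperature, the share of EC_ cells passed in 20 of 33 alternatives. It did not pass within replicates 3 and 4 (-0.33, adjusted p = 0.521), in the exact permutation test (adjusted p = 0.114), with the wider denominator (-1.52, adjusted p = 0.0837) or with 10 of the 15 libraries left out singly. It passed with the replicate block (-1.55), with the set of replicates (1 and 2, or 3 and 4) as covariate (-1.55), within replicates 1 and 2 (-2.77), under 20% mitochondrial UMIs (-1.57), at or above the median UMI count (-1.56), with the UMI floor (-1.46), 1 cell added (-1.52), arcsine values (-0.218), edgeR (-1.48), edgeR with TMM (-1.47), centred log ratios (-1.15), no minimum (-1.55), libraries of 3000 cells or more (-1.82), EC_11 and EC_23 as one (-1.86) and cluster 22 (-2.60), and was -2.04 to -1.10 with libraries left out singly. Cluster 22 also passed for 7-day against 2-day cold (-2.0). The UMI floor, the merged cluster and cluster 22 were chosen after seeing the data. For 2-day cold against thermoneutral it passed within replicates 3 and 4 (-1.58; -0.84 within 1 and 2), at or above the median UMI count (-1.58), in libraries of 3000 cells or more (-1.4) and merged with EC_23 (-1.58). For room temperature against thermoneutral it was 0.35 within replicates 1 and 2, -1.59 (called) within 3 and 4, and 0.30 with the wider denominator; 2-day cold against room temperature turned to 0.00896 within 3 and 4.

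The share of named cells in 7-day cold against thermoneutral passed with the set of replicates (1 and 2, or 3 and 4) as covariate (-1.09), within replicates 1 and 2 (-1.66), with TMM (-1.38), centred log ratios (-1.8; over 4 groups F = 5.16) and no VSM clusters (-1.95); against room temperature it passed within replicates 1 and 2 (-2.15) but was -0.13 within 3 and 4. Room temperature against thermoneutral turned to -0.39 within replicates 3 and 4, -0.23 at or above the median UMI count, -0.33 with centred log ratios, -0.12 in libraries of 3000 cells or more, -0.10 without VSM clusters and between -0.41 and 0.35 with libraries left out singly. Within replicates 3 and 4, 2-day cold against room temperature was 0.0118.

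Ratios called for 2-day cold numbered 0 within replicates 1 and 2, 6 within 3 and 4, 0 under 20% mitochondrial UMIs and 0 to 8 with libraries left out. Room temperature had 4 within 3 and 4, and 7-day cold 7 at or above the median UMI count, where fewer ratios were tested. Median UMIs at room temperature turned to 0.0337 within replicates 1 and 2, 0.19 at or above the median UMI count and 0.0848 with the floor. They were 0.13 against other EC_ cells and -0.19 to 0.14 with libraries left out. In 2-day cold they turned to -0.10 against other EC_ cells and were -0.0720 to 0.28 with libraries left out. For 7-day cold they turned to -0.16 within 3 and 4, and were 1.00 at or above the median. Limits on UMIs select cells on this measure itself, and the 1.00 rests on 7-day replicate 2 alone. Mitochondrial percent in 7-day cold was 0.84 (called) within 1 and 2 and -0.36 within 3 and 4; in 2-day cold it was 0.10 against other EC_ cells and -0.44 to 0.0770 with libraries left out. The S or G2M share in 7-day cold was -0.64 within 3 and 4, -0.77 against other EC_ cells, 0.24 with the other table's calls and -2.51 to -1.26 with libraries left out. The other table's calls gave 0.82 at room temperature and 1.26 in 2-day cold. For these per-cell measures, the 7-day values within replicates 3 and 4 rest on 1 library on the 7-day side, replicate 3, of 10 EC_11 cells.

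Same-numbered libraries deviated together (r over 0.1) in 12 of 21 pairs, and the same number was the best match for 7 of 15 libraries, so the numbers were not taken to pair libraries; with the replicate block the 7-day change in the EC_ share was -2.17 (limma, adjusted p = 0.00224). Counts of 9 to 16 EC_11 cells limit the 7-day values, and values from at least 20 cells were not possible for EC_11 there.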
